A study of Mus musculus with 12 samples.

Results

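The genes described here are 10 transcripts of dermal fibroblasts and of the matrix they lay down, chosen by symbol from the 23282 entries of each count table: the small proteoglycans Dcn and Lum, the receptor Pdgfra, the elastic fibre genes Eln, Fbn1, Mfap5 and Fbln1, the collagen-associated gene Dpt, and the matricellular genes Postn and Sparc. All 10 were measured in every mouse and all 10 passed the filter on low counts, which kept 14163 entries. RNA was measured in mouse skin by QuantSeq, a method that sequences a short tag near the 3′ end of each polyadenylated transcript. The mice were wild-type male C57BL/6J animals, 5 weeks old on arrival, and every one of them received 2,4-dinitrochlorobenzene (DNCB), a contact sensitizer that produces skin lesions resembling atopic dermatitis (AD), as a 0.5% solution 3 times a week for 6 weeks. The AD group (5 mice) ate ordinary chow, and the HF + AD group (7 mice, AD+OB in the labels) ate a high-fat diet with 60 kcal% fat that began 4 weeks before the first DNCB treatment. DNCB was thus shared by both groups and the diet, begun before DNCB, was what set them apart. The comparison therefore asks how these genes differed by diet in skin treated with DNCB. Skin without DNCB was not analysed here.

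Fibroblasts of the dermis secrete collagen and the molecules that organise it. Small leucine-rich proteoglycans such as decorin and lumican bind collagen fibrils and limit their width, and elastic fibres form when tropoelastin is laid on a scaffold of fibrillin microfibrils. Matricellular proteins such as periostin and SPARC sit in the same matrix and act mainly on how cells attach to it and how collagen is assembled.

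The libraries held between 9746937 and 13462434 counts, and the 10 genes were covered by between 26 and 29569 counts per gene and mouse, the lowest for Mfap5 and the highest for Sparc. Levels are given as counts per 1000000 after TMM scaling (CPM), and a level is compared between mice only, never between genes, since tags near the 3′ end do not allow for differences between transcripts. A count of 3 corresponded to between 0.223 and 0.308 CPM, well under every value reported for the 10 genes. Between 13100 and 15063 entries were detected in the AD mice and between 15522 and 16677 in the HF + AD mice, and the part of this difference in the results was not tested. Of the fibroblast markers, Dcn, Lum, Pdgfra, Dpt, Col1a1, Col1a2 and Col3a1 were detected in every mouse. The labels do not say whether libraries of 1 group were prepared separately, so p-values measure the spread between these libraries.

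No member differed between the groups at an adjusted p under 0.05 by edgeR's quasi-likelihood test with Benjamini-Hochberg adjustment over all genes tested. This count of 0 of 10 stands beside 9.2% of all genes tested that passed in either direction. At an unadjusted p under 0.05 there were 2 of the 10, Eln and Pdgfra, beside 25.1% of all genes, and DESeq2 and limma-trend called none of the 10 either. The estimate was higher in HF + AD for 6 genes and lower for 4, with a median log2 fold change of 0.16 beside 0.023 over all genes tested. In none of the 10 did the groups fail to overlap, beside 5.46% of all genes. A p that misses the threshold does not show that the groups were alike, and the intervals below show how wide a difference these mice leave possible. In whole skin, fewer fibroblasts and less RNA in each fibroblast cannot be told apart.

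**Figure D1:**
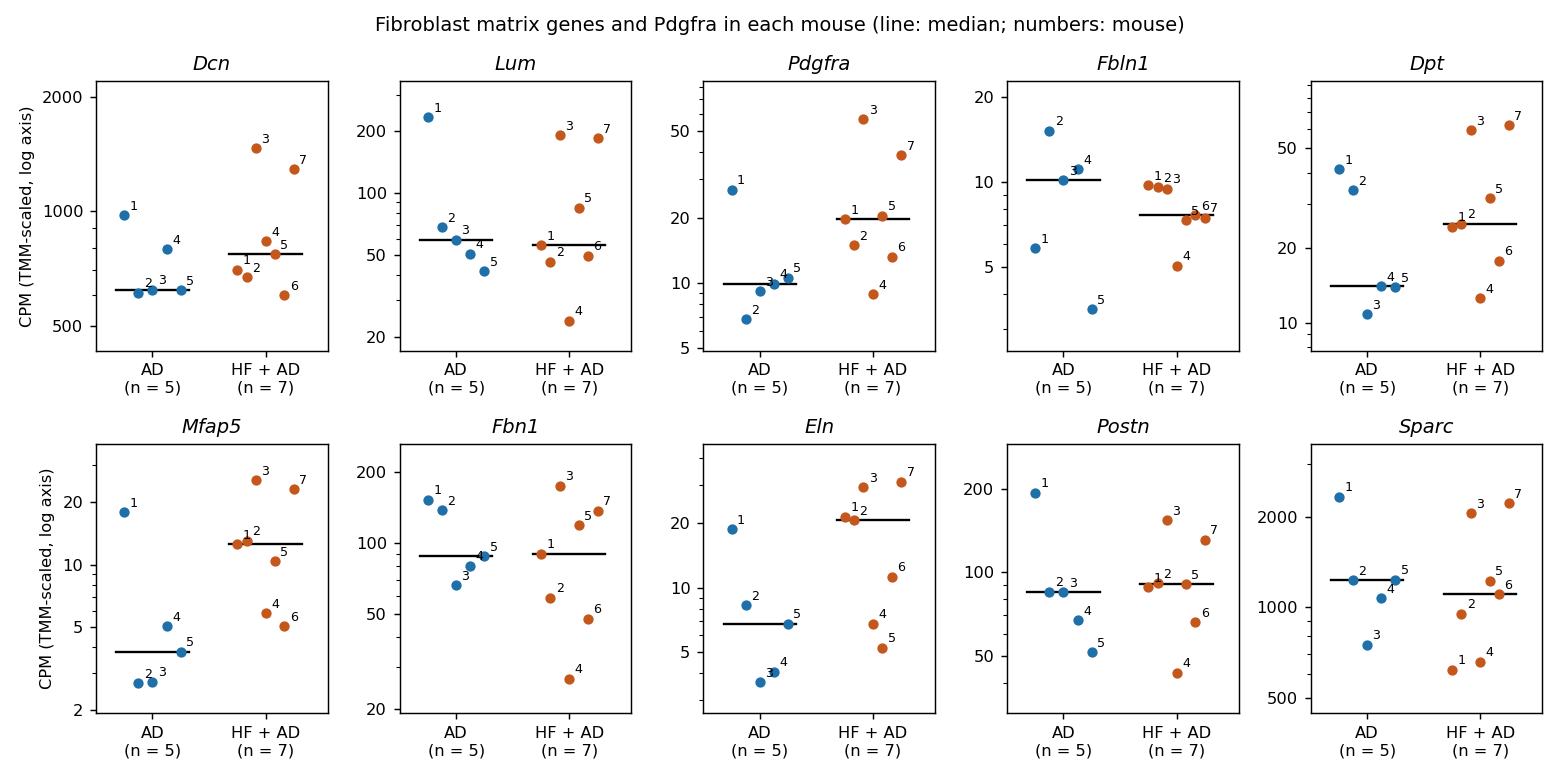
TMM-scaled CPM on a log axis for the 10 genes, with 1 point per mouse numbered by mouse, 5 AD mice on the left and 7 HF + AD mice on the right of each panel, and a line at the group median. AD mouse 1 is the highest AD mouse in 9 of 10 panels, and HF + AD mice 3 and 7 lie at or near the top of their group in most panels.

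The proteoglycans Dcn and Lum lie next to each other on chromosome 10 (GRCm38), Dcn at chr10:97479609-97518143 and Lum at chr10:97565128-97572703, both on the plus strand and 46984 bases apart. Dcn, which encodes decorin, was at 976, 610, 622, 794 and 619 CPM in AD mice 1 to 5. In HF + AD it ranged from 601 to 1465 CPM with a median of 770. HF + AD mice 3 and 7 lay above every AD mouse, mouse 6 lay below every AD mouse, and the other 4 were within the AD range. The log2 fold change was 0.32 (SE 0.22, 95% interval -0.14 to 0.78, edgeR adjusted p = 0.392).

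Lum, which encodes lumican, was at 234, 68.4, 59.3, 50.7 and 41.6 CPM in AD mice 1 to 5. In HF + AD it ranged from 23.9 to 191 CPM with a median of 55.7. The AD mean of 90.7 ± 80.5 CPM (SD, n = 5) and the HF + AD mean of 90.9 ± 68.7 CPM (SD, n = 7) were close, but each rested on few mice, since AD mouse 1 held 3.42 times the level of the next AD mouse and HF + AD mice 3 and 7 were at 191 and 185 CPM. The log2 fold change was 0.0036 (SE 0.50, 95% interval -1.04 to 1.05, edgeR adjusted p = 0.998), so a difference of about 2-fold in either direction lies within the interval.

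Pdgfra, the receptor for platelet-derived growth factor that marks most dermal fibroblasts, is on the plus strand at chr5:75152292-75198215. Its level was 26.9, 6.84, 9.19, 9.91 and 10.6 CPM in AD mice 1 to 5. In HF + AD it ranged from 8.88 to 56.6 CPM with a median of 19.7. The AD group without mouse 1 spanned only 6.84 to 10.6 CPM, and 6 of 7 HF + AD mice were above that range, while 2 of 7 were above AD mouse 1. With all 12 mice the log2 fold change was 0.96 (SE 0.45, 95% interval 0.018 to 1.89), with an unadjusted p of 0.0461 and an edgeR adjusted p of 0.190. Exons of Pdgfra overlap those of 2 annotated genes on the opposite strand, Gm42802 and Gm42803, and of Mir7025 on its own strand, and the sources used here do not say whether counting used strand.

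Of the elastic fibre genes, Eln had the largest estimate. Eln encodes tropoelastin, the rubber-like core of the fibre, and lies on the minus strand at chr5:134702593-134747323, where Gm30003 overlaps it on the opposite strand. It was at 18.7, 8.29, 3.64, 4.07 and 6.79 CPM in AD mice 1 to 5, and in HF + AD it ranged from 5.25 to 31.2 CPM with a median of 20.6. HF + AD mice 1, 2, 3 and 7 were above every AD mouse, whereas mice 4, 5 and 6 were within the AD range. The log2 fold change was 1.12 (SE 0.49, 95% interval 0.074 to 2.16), with an unadjusted p of 0.0372 and an edgeR adjusted p of 0.166.

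Mfap5 encodes a small glycoprotein of the fibrillin microfibril and lies on the plus strand at chr6:122505845-122529290. It was at 17.8, 2.69, 2.73, 5.04 and 3.80 CPM in AD mice 1 to 5. In HF + AD it ranged from 5.06 to 25.4 CPM with a median of 12.49. AD mouse 1 held 3.53 times the level of the next AD mouse, and the lowest HF + AD mouse, at 5.06 CPM, was just above the other 4 AD mice. The log2 fold change was 1.08 (SE 0.54, 95% interval -0.046 to 2.21, edgeR adjusted p = 0.219).

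Fbn1 and Fbln1 had estimates below 0, and their difference from Eln and Mfap5 was not tested. Fbn1, which encodes fibrillin-1, the main microfibril protein (minus strand, chr2:125300594-125507993, overlapped by Gm9913 on the opposite strand), was at 152, 137, 66.4, 80.3 and 87.8 CPM in AD mice 1 to 5, and ranged from 26.8 to 175 CPM in HF + AD with a median of 90.1. HF + AD mouse 3 was above every AD mouse, and mice 2, 4 and 6 were below. HF + AD against AD gave a log2 fold change of -0.17 (SE 0.36, 95% interval -0.92 to 0.59, edgeR adjusted p = 0.823).

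Fbln1, which encodes fibulin-1, a protein of elastic fibres and basement membranes (plus strand, chr15:85205949-85286535), was at 5.81, 15.1, 10.1, 11.1 and 3.53 CPM in AD mice 1 to 5. In HF + AD it stayed between 5.05 and 9.71 CPM with a median of 7.59. All 7 HF + AD mice were within the AD range, and Fbln1 was the member in which AD mouse 1 was not the highest AD mouse but the second lowest. For Fbln1 the log2 fold change was -0.19 (SE 0.37, 95% interval -0.97 to 0.60, edgeR adjusted p = 0.807).

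Dpt encodes dermatopontin, which binds decorin and collagen (plus strand, chr1:164796644-164824266). It was at 41.3, 34.1, 10.8, 13.98 and 13.9 CPM in AD mice 1 to 5, and in HF + AD it ranged from 12.53 to 62.1 CPM with a median of 24.97. HF + AD mice 3 and 7 were above every AD mouse and the other 5 were within the AD range. Between the groups the log2 fold change of Dpt was 0.54 (SE 0.42, 95% interval -0.34 to 1.42, edgeR adjusted p = 0.460).

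Postn encodes periostin, a matricellular protein known for its link to type 2 inflammation of the skin, and lies on the plus strand at chr3:54361109-54391037. It was at 194, 85.3, 84.8, 67.2 and 51.6 CPM in AD mice 1 to 5. In HF + AD it ranged from 43.4 to 155 CPM with a median of 90.7. Mouse 4 of HF + AD was below every AD mouse and none was above AD mouse 1, with a log2 fold change of -0.021 (SE 0.31, 95% interval -0.68 to 0.64, edgeR adjusted p = 0.979).

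Sparc encodes a collagen-binding glycoprotein (minus strand, chr11:55394500-55423183). It was at 2336, 1230, 751, 1074 and 1237 CPM in AD mice 1 to 5, and in HF + AD it ranged from 621 to 2224 CPM with a median of 1105. HF + AD mice 1 and 4 were below every AD mouse, and mice 3 and 7 were close to AD mouse 1. Sparc had a log2 fold change of -0.069 (SE 0.32, 95% interval -0.74 to 0.60, edgeR adjusted p = 0.925).

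The 250 bases before the annotated start are shown for Postn and Sparc, the matricellular members, and for Pdgfra. After Pdgfra and Dpt (0.316 log2 units), Postn and Sparc were the members whose centred log2 patterns over the 12 mice lay nearest to each other (0.342). They are from RefSeq (GRCm38.p6), and 6 of the 10 members matched the promoter table. Dcn, Lum, Mfap5 and Eln are not shown. Each run is 5′ to 3′ on the gene's own strand, with capitals marking a TATAAA match. Postn has 2 annotated starts, and the second window, chr3:54359017-54359266, held none of the motifs searched and is not printed. The windows are chr3:54360857-54361106 (plus strand) for Postn, chr11:55420081-55420330 (minus strand) for Sparc and chr5:75152001-75152250 (plus strand) for Pdgfra. The RefSeq starts of Sparc (55420080) and Fbn1 (125506438) lie inside the GENCODE spans given above, and so do their windows.
Postn: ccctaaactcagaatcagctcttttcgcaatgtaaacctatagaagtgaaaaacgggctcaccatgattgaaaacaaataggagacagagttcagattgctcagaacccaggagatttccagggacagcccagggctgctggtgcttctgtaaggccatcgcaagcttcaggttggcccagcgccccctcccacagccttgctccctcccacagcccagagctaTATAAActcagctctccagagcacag
Sparc: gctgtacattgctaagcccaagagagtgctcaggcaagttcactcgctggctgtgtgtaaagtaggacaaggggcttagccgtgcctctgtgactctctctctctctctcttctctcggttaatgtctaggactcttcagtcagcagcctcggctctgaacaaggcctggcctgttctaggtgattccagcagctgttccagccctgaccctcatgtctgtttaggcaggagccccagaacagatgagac
Pdgfra: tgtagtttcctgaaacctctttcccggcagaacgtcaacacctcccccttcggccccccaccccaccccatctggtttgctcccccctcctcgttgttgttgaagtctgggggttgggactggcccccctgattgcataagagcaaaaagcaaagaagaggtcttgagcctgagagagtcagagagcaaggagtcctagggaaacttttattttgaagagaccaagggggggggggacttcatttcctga
Postn held a TATAAA match that began at position -26 from its start, and this motif was found in 1 of the 8 windows of the 6 members, beside 12.4% of all 32851 windows in the table. GGGCGG was found in 2 of 8 member windows, at -185 in Fbn1 and -11 in Fbln1, beside 32.7% of all. CCAAT and TGANTCA were in 0 of 8 member windows, beside 33.8% and 6.75% of all. Both strands were searched and no 2 of these motifs overlapped in a member window. A match describes letters in the window and nothing about use of the site.

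The spread within each group was wide for most of these genes and the same few mice carried it. The within-group SD of log2 CPM was 0.82 at the median of the 10 genes, beside 0.47 over all genes tested. Lum had the widest spread at 1.05 and Dcn the narrowest at 0.42. AD mouse 1 was the highest AD mouse for 9 of the 10 genes and lay on average 0.99 log2 units above its group mean. HF + AD mouse 3 lay 0.98 above, with all 10 genes over the group mean, and mouse 7 lay 0.83 above, with 9 of 10 over it. At the other end, HF + AD mouse 4 lay 1.01 log2 units below the mean of its group (mean deviation -1.01) and was the lowest of its group for 6 genes, and no member was above the group mean in mouse 4 or mouse 6. The summed CPM of the 10 genes was 4002 in AD mouse 1, 4224 in HF + AD mouse 3 and 4128 in HF + AD mouse 7, and between 1620 and 2365 in the other 9 mice.

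**Figure D2:**
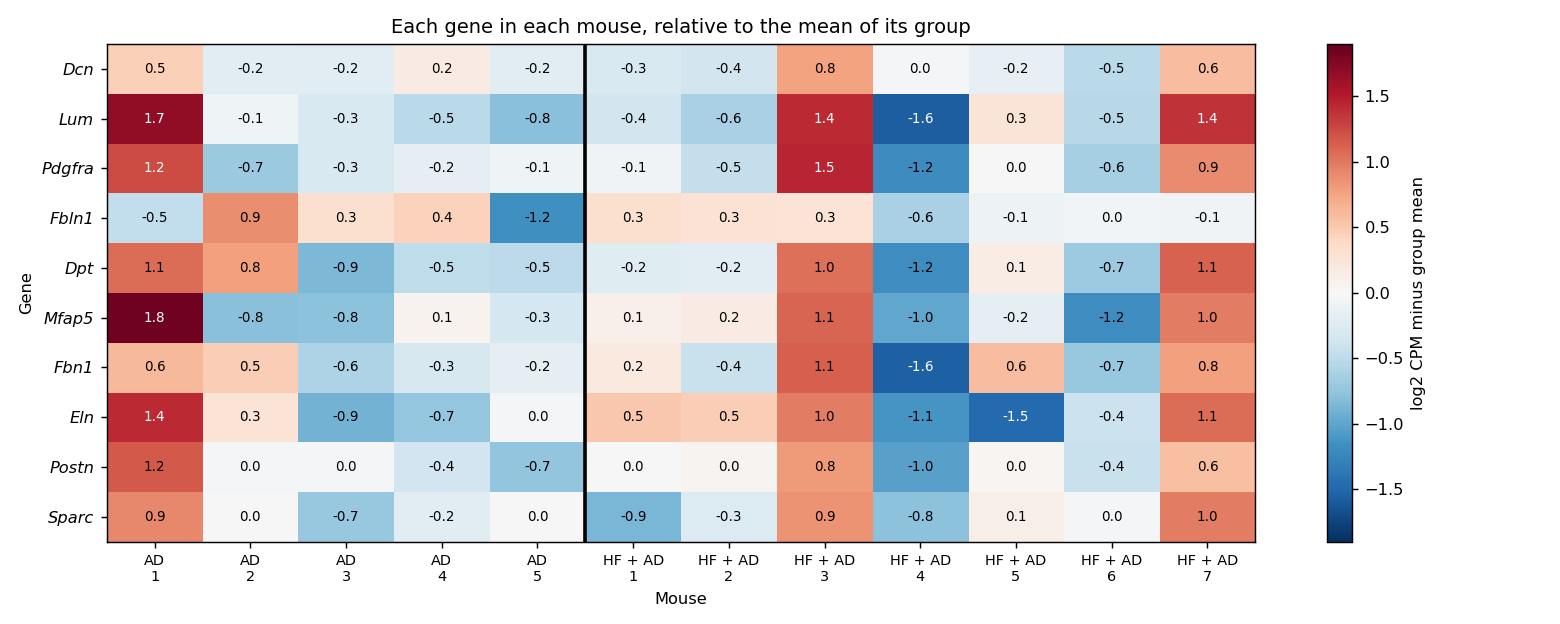
Log2 CPM minus the mean of the group, for each of the 10 genes (rows) in each of the 12 mice (columns), with the AD mice left of the line. AD mouse 1 and HF + AD mice 3 and 7 are above their group mean in nearly every row, HF + AD mouse 4 is below in all 10 (by 0.043 for Dcn), and Fbln1 departs from the pattern in AD mouse 1.

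These same mice were high in collagen RNA. The summed level of Col1a1, Col1a2, Col3a1, Col6a1 and Col6a2 was 8769 CPM in AD mouse 1, 6738 in HF + AD mouse 3 and 8898 in HF + AD mouse 7, and 2478 in HF + AD mouse 4. Among the 10133 other genes with a mean count of at least 100, the pattern over the 12 mice nearest to the mean of the 10 members was that of Col1a2, with a mean absolute difference of 0.18 log2 units, beside a median of 0.63 over all those genes. Next came Bgn (biglycan, a further small proteoglycan) at 0.20, Coch at 0.20, Col4a1 (a basement membrane collagen) at 0.22 and Serpinh1 (a collagen chaperone) at 0.22. Of single members, Postn lay nearest to Cyp26b1 (0.16), Dcn to 4632428N05Rik (0.16), Sparc to Cybb (0.17), Fbn1 to Fn1 (0.20), Fbln1 to Syvn1 (0.22), Dpt to Ctss (0.23), Eln to Lrg1 (0.28), Lum to Dpep1 (0.29), Pdgfra to Pla1a (0.30) and Mfap5 to C1qa (0.31). Among the members themselves Fbln1 lay farthest from the rest, at a mean difference of 0.80, and Postn nearest, at 0.46. All 12 values in each of these measures share their libraries, so they are descriptions.

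Because collagen RNA varied so much between mice, the counts of each member were also set per 1000 counts of the 5 collagen genes, a measure chosen after the data were seen. On this scale Sparc varied only 1.33-fold over the 12 mice, from 264 to 321 in AD and from 242 to 322 in HF + AD, against 3.76-fold in CPM. Pdgfra was at 3.06, 1.47, 3.49, 2.96 and 2.70 per 1000 collagen counts in AD mice 1 to 5, and between 3.56 and 8.40 in HF + AD, so that 7 of 7 HF + AD mice were above every AD mouse. Pdgfra was the 1 member of 10 without overlap on this scale, beside 0.522% of all genes tested. In CPM that share of all genes was 5.46%, so dividing by collagen lowered it by itself. It is therefore no like background for genes that vary with collagen, and no conclusion is drawn from the comparison. For Mfap5, 6 of 7 HF + AD mice were above all AD mice, with a range of 0.578 to 2.03 in AD and 1.36 to 4.88 in HF + AD. For Eln 6 of 7 were above, with a range of 1.22 to 2.13 in AD and 1.38 to 8.37 in HF + AD. None of the 5 collagen genes passed the test between groups. Their log2 fold changes lay between -0.45 for Col1a1 and 0.80 for Col3a1 (edgeR adjusted p = 0.460 and 0.240).

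A single mouse decided whether Eln, Mfap5 and Pdgfra passed the test. Without AD mouse 1 the log2 fold change was 1.93 for Mfap5 (SE 0.47, edgeR adjusted p = 0.0186), 1.67 for Eln (SE 0.48, edgeR adjusted p = 0.0372) and 1.44 for Pdgfra (SE 0.43, edgeR adjusted p = 0.0458). In that fit 3 of the 10 genes were higher in HF + AD past the threshold, beside 5.38% of all genes tested. AD mouse 1 was the highest AD mouse for 9 of the 10 genes, so leaving it out raises their estimates by itself. The share of all genes does not allow for this, and no conclusion is drawn from the comparison. The HF + AD mice above every remaining AD mouse numbered 7 of 7 for Mfap5, 6 of 7 for Pdgfra and 5 of 7 for Eln. Mfap5 was thus 1 member of 10 without overlap in this set of 11 mice, beside 4.57% of all genes tested that were higher without overlap. The mouse left out was the 1 that made Mfap5 overlap, so this count follows from the omission. The margin was small, with the lowest HF + AD mouse at 5.06 CPM and the highest remaining AD mouse at 5.04 CPM. With all 12 mice, 2 of 7 HF + AD mice were above every AD mouse for Mfap5. The same 3 genes passed with the summed collagen level as a term in the fit with all 12 mice, which was added after the data were seen. The log2 fold changes were 1.33 for Mfap5 (edgeR adjusted p = 0.0405), 1.32 for Eln (edgeR adjusted p = 0.0397) and 0.96 for Pdgfra (edgeR adjusted p = 0.04996, just under the threshold). These calls stood beside 5.13% of all genes. The mean pattern of the members was close to that of collagen RNA. With the term the SE fell from 0.54 to 0.39 for Mfap5, from 0.49 to 0.39 for Eln and from 0.45 to 0.30 for Pdgfra. The share of all genes is therefore no like background, and no conclusion is drawn from the comparison. Leaving out any other single mouse gave no call for any member. The other 7 members did not pass without AD mouse 1. The sign of Lum, Postn, Sparc, Fbn1 and Fbln1 turned under at least 1 single omission, and their estimates with all mice were within 0.19 log2 units of 0.

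**Figure D3:**
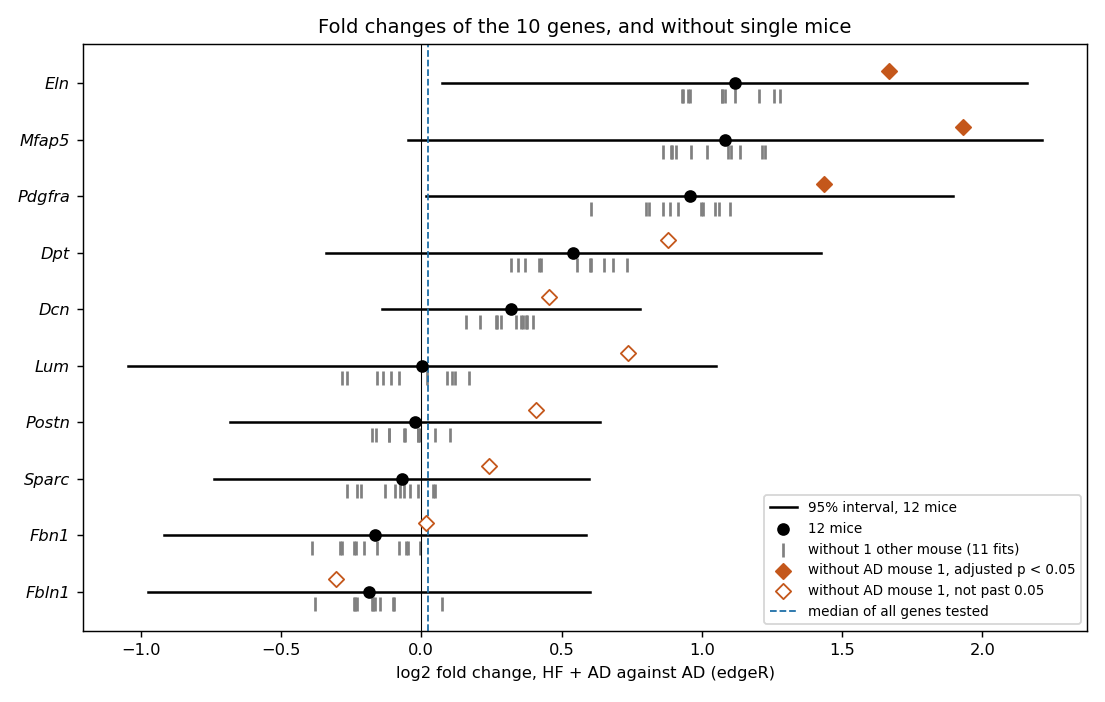
Log2 fold change of HF + AD against AD from edgeR for each gene, with all 12 mice (black point, 95% interval), without 1 mouse other than AD mouse 1 (grey ticks), and without AD mouse 1 (diamonds, filled where the adjusted p was under 0.05). The filled diamonds are those of Eln, Mfap5 and Pdgfra, at 1.67, 1.93 and 1.44.

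Other genes of the same structures were read from 7 lists with 91 genes tested, of which 8 (8.79%) were higher and 2 (2.2%) lower past the threshold, beside 4.43% and 4.77% of all genes tested. Without AD mouse 1 the number higher was 15, beside 5.38% of all genes tested in that fit. AD mouse 1 lay above its group mean for lists such as the elastic fibre (0.85 log2 units) and other fibroblast genes (0.56). Leaving it out raises such estimates by itself, so no conclusion is drawn from that count. The number lower was 1 in each of 5 omissions (AD mice 2 and 3, HF + AD mice 4, 6 and 7). Among 9 tested small leucine-rich proteoglycan genes, 1 was higher and 0 lower, with a median log2 fold change of 0.19. This was Podn, which encodes podocan, at 8.58 ± 2.42 CPM (SD, n = 5) in AD and 19.5 ± 6.97 CPM (SD, n = 7) in HF + AD, a log2 fold change of 1.18 (SE 0.31, edgeR adjusted p = 0.0252). The call for Podn was lost without HF + AD mouse 1 or mouse 2, with an edgeR adjusted p of up to 0.0650. Podn did not follow the members over the mice. It was lowest of its group in AD mouse 1 (4.90 CPM) and in HF + AD mouse 3 (11.3 CPM), where the members stood high.

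Of 16 tested elastic fibre genes, 1 was higher and 1 lower, with a median of 0.26. These were 2 latent TGF-beta binding proteins, which tether the growth factor to microfibrils. Ltbp3 was at 116 ± 23.9 CPM in AD and 185 ± 36.5 CPM in HF + AD, a log2 fold change of 0.68 (SE 0.17, edgeR adjusted p = 0.0196), and its call was lost without AD mouse 2 (0.0514). Ltbp1 went the opposite way, from 31.5 ± 7.82 CPM in AD to 16.0 ± 3.36 CPM in HF + AD, a log2 fold change of -0.98 (SE 0.22, edgeR adjusted p = 0.0140), and kept its call in all 12 single omissions. Of the 10 tested TGF-beta pathway genes 1 was higher and 0 lower, with a median of 0.17: Smad3, a signal transducer of the receptor, at 8.58 ± 1.63 CPM in AD and 19.8 ± 6.94 CPM in HF + AD (log2 fold change 1.21, SE 0.28, edgeR adjusted p = 0.0155).

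Of 17 tested matricellular genes, 2 were higher and 0 lower, with a median of 0.22. Both encode CCN proteins. Ctgf was at 18.5 ± 7.40 CPM in AD and 51.2 ± 18.2 CPM in HF + AD, a log2 fold change of 1.47 (SE 0.30, edgeR adjusted p = 0.00960), and Cyr61 was at 5.72 ± 1.75 CPM and 17.7 ± 8.25 CPM, a log2 fold change of 1.63 (SE 0.37, edgeR adjusted p = 0.0139). The AD maximum of Cyr61, 8.17 CPM, was below the HF + AD minimum of 9.23 CPM, whereas the ranges of Ctgf overlapped between 24.1 and 29.5 CPM. Of the list genes, Ltbp3, Sdc4 and Smad3 were also higher without overlap. Groups without overlap in either direction were found for 5.46% of all genes tested. Postn and Sparc, the matricellular members, had estimates near 0.

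Among 12 tested genes of large proteoglycans and hyaluronan, 2 were higher and 1 lower, with a median of 0.43. Sdc4, a cell-surface heparan sulphate proteoglycan, was at 78.9 ± 5.92 CPM in AD and 151 ± 40.3 CPM in HF + AD, with a log2 fold change of 0.93 (SE 0.17, edgeR adjusted p = 0.00679). Hspg2, which encodes the basement membrane proteoglycan perlecan, was at 15.9 ± 5.69 and 35.0 ± 9.93 CPM (log2 fold change 1.14, SE 0.27, edgeR adjusted p = 0.0165). The hyaluronan receptor Cd44 was lower, at 525 ± 137 and 351 ± 58.2 CPM (log2 fold change -0.58, SE 0.16, edgeR adjusted p = 0.0350), and lost its call in 7 of the 12 single omissions, those of AD mice 1, 2 and 3 and HF + AD mice 4, 5, 6 and 7, with an adjusted p of up to 0.0837.

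Of the 5 tested PDGF ligands and receptors, 0 passed in either direction with edgeR, and all 5 estimates were above 0, with a median of 0.85. Pdgfa, a ligand of the Pdgfra receptor, had a log2 fold change of 0.85 (SE 0.32, edgeR adjusted p = 0.108), and Pdgfrb, the receptor typical of mural cells, 0.60 (SE 0.41, edgeR adjusted p = 0.391). Among 22 other fibroblast genes 1 was higher and 0 lower, with a median of 0.17. This was Clec3b, which encodes tetranectin, at 7.07 ± 6.10 CPM in AD and 27.2 ± 16.0 CPM in HF + AD (log2 fold change 1.94, SE 0.51, edgeR adjusted p = 0.0264). Its call was lost in 5 of the 12 single omissions, those of AD mice 2, 3 and 4 and HF + AD mice 1 and 7, with an adjusted p of up to 0.0619. Without AD mouse 1, which was the highest AD mouse for Clec3b and for 9 of the 10 members, the log2 fold change of Clec3b was 2.62. The list genes called higher did not share 1 pattern over the HF + AD mice. Podn, Ltbp3, Sdc4, Hspg2 and Smad3 were each highest in mouse 1, whereas Ctgf and Cyr61 were highest in mouse 3 and Clec3b in mouse 7. Which cells gave rise to these differences was not tested.

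**Figure D4:**
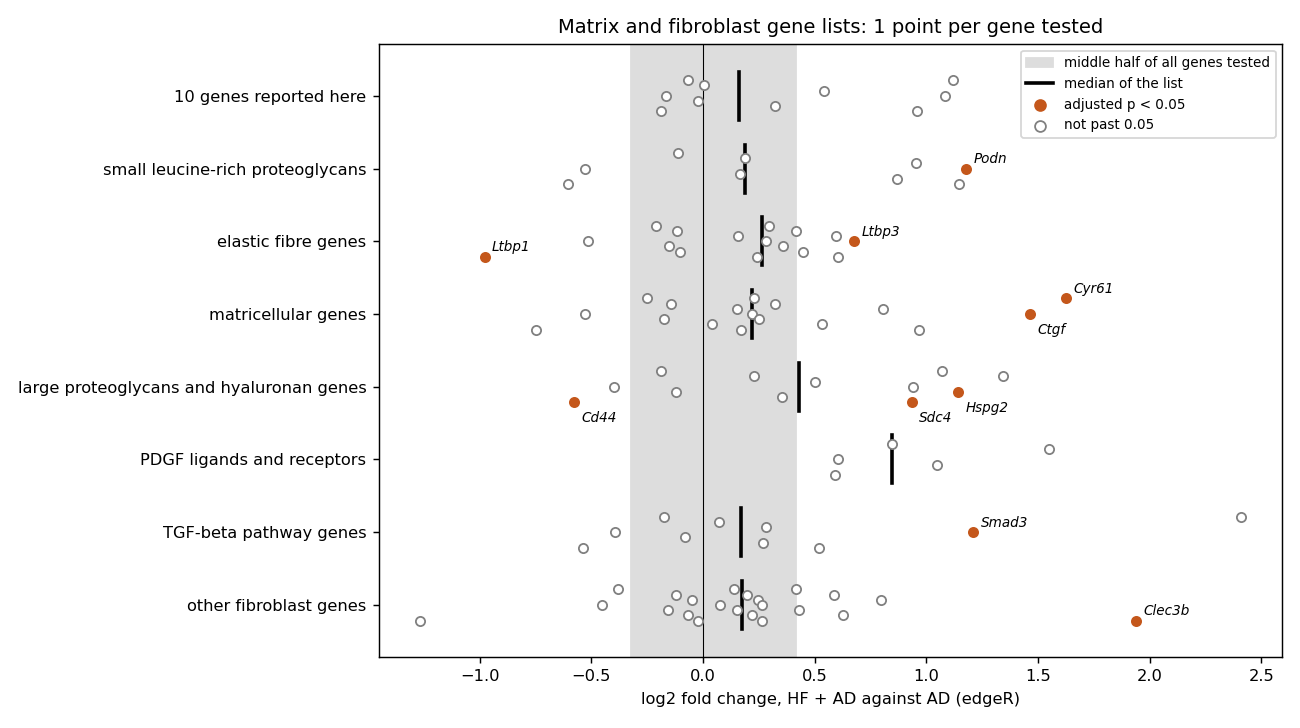
Log2 fold change of HF + AD against AD for every tested gene of the 10 members and the 7 lists, 1 point per gene, with filled points where the edgeR adjusted p was under 0.05, a bar at the median of each list and a grey band over the middle 50% of all genes tested (-0.32 to 0.42). None of the 10 members is filled, and 10 genes of the lists are.

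Markers of other cells of the skin also varied between mice, and their part in the members' values was not tested. Of all genes tested, 4.43% were higher and 4.77% lower past the threshold, and 25.1% had an unadjusted p under 0.05. The 10 macrophage markers summed to between 43.2 and 209 CPM in AD, with AD mouse 1 at 209, and to between 69.2 and 320 CPM in HF + AD, with mouse 7 at 320 and mouse 3 at 244. None of them passed the test by edgeR, and 9 of 10 estimates were above 0, with a median log2 fold change of 0.94. Of the 10, 3 had an unadjusted p under 0.05 by edgeR, near the share of all genes. Adipocyte markers summed to between 165 and 816 CPM in AD, with AD mouse 1 at 816, and to between 151 and 672 CPM in HF + AD, with mouse 7 at 672. Of the 9 tested, 1 was higher (Lipe), while 5 estimates were above 0 and 4 below, among them Adipoq at -0.54 and Cidec at -0.77, with a median of 0.10. Of 10 endothelial markers, 2 were higher (Cdh5 and Kdr), with 7 estimates above 0 and 3 below and a median of 0.17. Of 8 mural cell markers 1 was higher (Cspg4), with 6 estimates above 0 and 2 below and a median of 0.45. Skeletal muscle markers summed to between 1774 and 3955 CPM in AD and 1054 and 2581 CPM in HF + AD, and 3 of 10 were lower (Acta1, Myl1 and Atp2a1), with all 10 estimates below 0 and a median of -0.70. Basal keratinocyte markers summed to between 3918 and 5747 CPM in AD and 6530 and 11214 CPM in HF + AD, and 3 of 8 were higher (Krt5, Krt14 and Krt15), with 6 estimates above 0 and 2 below and a median of 0.27. Of hair shaft markers 3 of 10 were higher (Krt31, Krt34 and Krt86), with 8 estimates above 0 and 2 below and a median of 0.50. By edgeR none of 6 suprabasal keratinocyte, 5 T cell and 6 Schwann cell markers passed, with medians of -0.17, 0.21 and 0.36 and 0, 1 and 0 at an unadjusted p under 0.05.

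**Figure D5:**
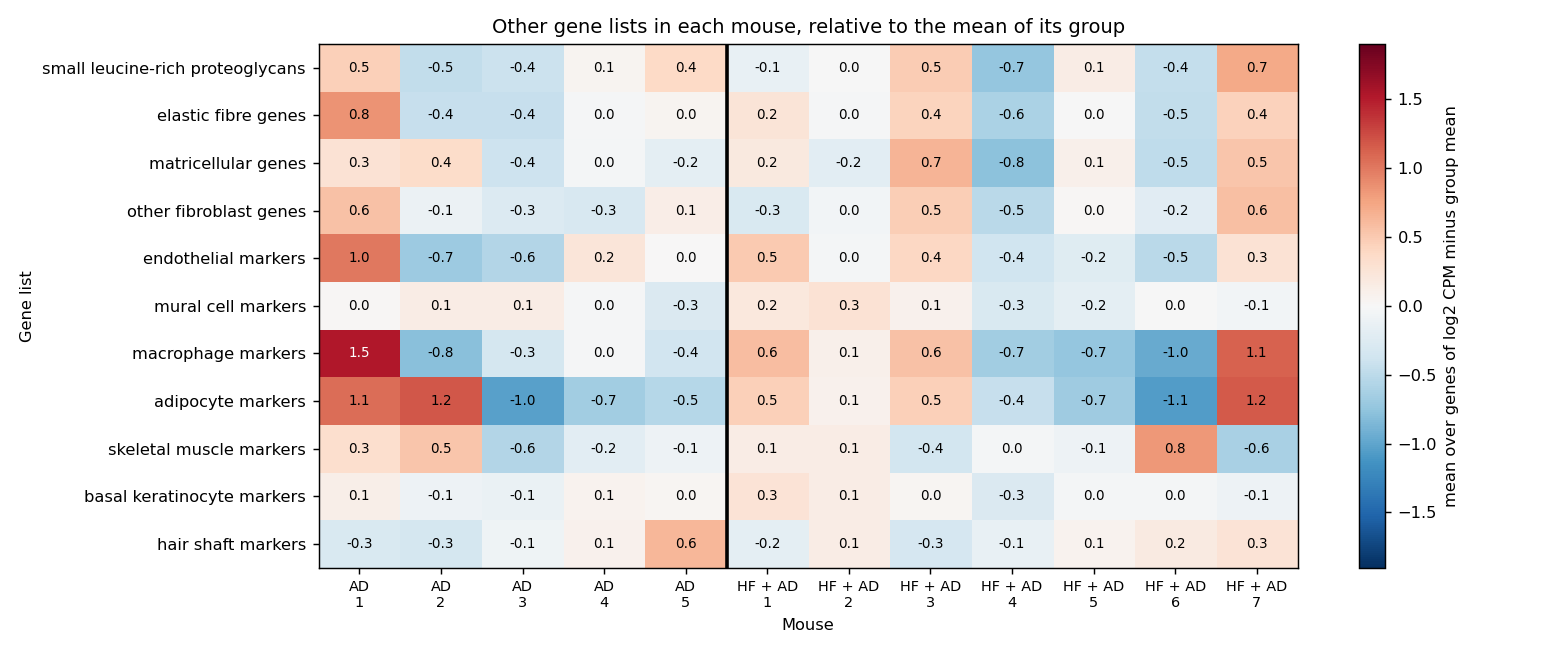
Mean over genes of log2 CPM minus the mean of the group, for 4 matrix and fibroblast lists and 7 cell type marker lists (rows) in each of the 12 mice (columns). AD mouse 1 is above its group mean in every row except hair shaft markers (-0.29), by 1.5 log2 units for macrophage markers and by 0.027 for mural cell markers. For adipocyte markers AD mouse 2 is higher still (1.18 against 1.06). HF + AD mouse 4 is below its group mean in every row, from -0.030 for skeletal muscle markers to -0.78 for matricellular genes.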

How the data were processed

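RNA from the skin of 5 AD and 7 HF + AD mice was sequenced as QuantSeq 3′ libraries. The authors deposited 1 table of raw counts per gene symbol for each mouse, with no normalization. The submitters' processing notes name Bowtie2, bedtools and mm10, without versions, and how reads were counted, whether by strand or not, is not given in the sources used here. In the tables, 35 symbols stood on more than 1 row and kept separate entries, and 4677 entries were 0 in every mouse. No 2 libraries held identical values.

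Counts were scaled by TMM (factors 0.944 to 1.04), filtered with filterByExpr and tested with edgeR 4.0.16 (glmQLFit and glmQLFTest, R 4.3.3) over all 12 mice with group as the term, two-sided, with Benjamini-Hochberg adjustment over 14163 genes and a threshold of 0.05. Fold changes are HF + AD over AD, and intervals are 95% intervals from the model. DESeq2 1.42.0 and limma 3.58.1 served as alternatives. The procedure was tested on simulated data. Likeness was the mean absolute difference of centred log2 CPM (prior count 2) over 12 mice.

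The members and lists were chosen with earlier results of these data known. Genes outside the members were named by rule: those past the threshold in each list, up to 4 in each direction, or the 2 with the highest mean CPM where none passed, and the genes nearest in pattern. Single marker genes were named after their values were seen. Positions are from GENCODE M21 (GRCm38), and promoter sequences from RefSeq (GRCm38.p6). Counting error was small beside the spread between mice, and floors cover counting error only. Alternatives were other scalings and filters, DESeq2, limma-trend, a robust prior, a block for replicate number, leaving out each mouse, and a collagen term added after the data were seen.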

Additional observations from a re-analysis of the deposited data

Results flagged for a closer look

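Of 52 groups of values examined for a mouse that stood far from the rest of its group (Dixon's criterion at 95%), 7 were flagged, and 6 of these were AD mouse 1. Chance flags about 5% of such groups where values are normally distributed, and CPM was used here without a log. The groups share their mice, so the flags are not independent. The criterion weighs the gap to the nearest mouse, so high mice that lie close together hide each other. HF + AD mice 3 and 7, with summed levels of 4224 and 4128 CPM, were therefore not flagged, and the tally does not set AD mouse 1 above them. AD mouse 1 stood apart for Lum at 234 CPM, with a gap to the next AD mouse that was 0.86 of the whole AD range, for Mfap5 at 17.8 CPM (0.844), for Pdgfra at 26.9 CPM (0.813), for Postn at 194 CPM (0.764) and for the list gene Clec3b at 17.7 CPM (0.754). The summed level of the 10 genes was flagged in the same mouse at 4002 CPM (0.757). The remaining flag was Smad3 in HF + AD mouse 1, at 34.3 CPM (0.595). The cause was not tested for any of them.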

How the results depend on the processing

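The fold changes of the 10 members and of the 12 named list genes, and the counts of genes called, were recomputed under 21 alternatives, 20 planned and 1 (the collagen term) added after the data were seen. No member was called lower in any. The number called higher was 0 to 3 over the single omissions (3 without AD mouse 1) and 3 with the collagen term, and 0 in the rest. Signs near 0 turned: Lum was -0.0035 (log2) with RLE size factors, -0.0039 with DESeq2, -0.027 with limma-trend and -0.21 with the replicate block, and Postn was 0.039 with library totals alone, 0.033 with limma-trend, 0.0078 with the replicate block and 0.058 with the collagen term. Over single omissions Lum ranged from -0.28 to 0.74, Postn from -0.18 to 0.41, Sparc from -0.27 to 0.24, Fbn1 from -0.39 to 0.016 and Fbln1 from -0.38 to 0.074. The genes called numbered 1303, and 639 to 1461 over single omissions (639, 686 and 794 without HF + AD mouse 2, 1 or 4, and 803 without AD mouse 2), with 1946 for DESeq2. The share called higher was 48.1%, and 59.1% with library totals alone. The median of all genes moved from 0.023 to 0.12 without the filter and 0.15 with limma-trend. List genes called higher numbered 8 (6 to 15 over single omissions, the 15 without AD mouse 1) and lower 2 (1 to 3, and 4 with DESeq2). Samples sharing a replicate number were not paired: their deviations correlated between -0.082 and 0.039, and none lay nearest to its own number. The replicate block, which leaves out HF + AD mice 6 and 7 in effect, left 192 genes called, 1 list gene higher (Sdc4) and 0 lower, and moved the median of all genes to 0.14. Mfap5 rests on as few as 26 counts, with a within-group SD of 0.97 log2 units. Marker lists, list medians, spread, likeness and the search for mice that stood apart were computed once.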
